A study of Mus musculus with 20 samples.

Results

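clone19 is a line of immortalised mouse kidney epithelial cells labelled Fh1 deletion, and it was compared with Fh1_fl_fl, the floxed line labelled Fh1 wt. The comparison took the 5 libraries titled clone19 and the 5 libraries titled Fh1_fl_fl, 10 of the 20 libraries of the series, across all annotated genes. The remaining 10 libraries, 5 of clone1 (also labelled Fh1 deletion) and 5 of Rec (labelled Fh1 wt re-expressed), served to find what sets clone19 apart. All 4 groups are cells of strain C57BL/6J grown in serum-supplemented DMEM with uridine, and the libraries were made from total RNA. By its name clone19 is 1 clone, so the Fh1 label and the descent of the line cannot be told apart in a comparison with Fh1_fl_fl. The donor animals' age, the part of Fh1 that was deleted and whether the 5 libraries of a line came from separate cultures are likewise not given, so p-values measure the spread between these libraries, which may be technical.

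Fh1 encodes fumarate hydratase, the enzyme of the mitochondrial TCA cycle that turns fumarate into malate. Cells without it accumulate fumarate, which is known to inhibit dioxygenases that use 2-oxoglutarate, among them the prolyl hydroxylases that mark hypoxia-inducible factor (HIF) for destruction and the TET enzymes that oxidise methylated DNA. Fumarate also modifies cysteines of KEAP1, the protein that holds the antioxidant factor NRF2 in check. In people, inherited loss of FH predisposes to an aggressive kidney cancer.

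The clone19 libraries, replicates 1 to 5, held 5988447, 8803646, 6371298, 10095536 and 9687230 gene counts, and those of Fh1_fl_fl held 18972176, 8978370, 11541124, 13109985 and 12928763. Replicate 3 of clone19 stood apart from the others of its line. Gm42418, a locus on chromosome 17 that collects ribosomal RNA reads, took 8.20% of its gene counts, against 0.212 to 0.338% in the other clone19 libraries and 0.226 to 0.463% in Fh1_fl_fl. Levels are given as CPM, the usual count unit relative to depth, on library sizes scaled by the trimmed mean of M-values. Gm42418 was at 2300, 3430, 91500, 2840 and 2100 CPM in clone19 and at 2400, 2110, 4330, 3290 and 2700 CPM in Fh1_fl_fl. Its log2 fold change was 2.78 (adjusted p = 0.00117), and without clone19 replicate 3 it was -0.14 (adjusted p = 0.485), so the call rested on that library. All 6 tested ribosomal and small RNA loci passed the test as higher in clone19, with a median log2 fold change of 1.76, or -0.13 without replicate 3. For the other genes followed across settings here, leaving out replicate 3 ended no call and turned no direction.

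Fh1 itself was counted at 82, 91.6, 86.1, 90.5 and 73.6 CPM in clone19 and at 84.7, 96.3, 97, 97.2 and 86.6 CPM in Fh1_fl_fl. The 2 lines overlapped, and the log2 fold change was -0.12 (SE 0.07, adjusted p = 0.124), or -0.25 (adjusted p = 0.00328) with libraries scaled to their totals. Because reads were counted over the whole gene, they do not measure the deletion and leave the label unchecked.

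Both lines expressed markers of kidney tubule epithelium. Of the 7 tubule epithelium markers (Epcam, Cdh1, Krt8, Krt18, Pax8, Pax2 and Cdh16), 6 fell and 1, Pax8, rose in clone19, and their summed level ran from 1671 to 1917 CPM in clone19 and from 3103 to 3634 CPM in Fh1_fl_fl. Cdh16, the kidney-specific cadherin, averaged 423 ± 43.6 CPM in clone19 and 831 ± 85.4 CPM in Fh1_fl_fl (SD, n = 5 each, as for every mean below). Most markers of other cell types were near 0. Of the podocyte markers, Podxl averaged 200 ± 15.6 CPM in clone19 and 126 ± 10.2 CPM in Fh1_fl_fl, Synpo fell to 10.1 ± 1.03 CPM in clone19, against 18.4 ± 2.89 CPM in Fh1_fl_fl, and Nphs1 was at 0 in both lines. The 5 leukocyte markers summed to 0.689 to 1.58 CPM in clone19 and 0.49 to 1.04 CPM in Fh1_fl_fl, with Cd3e at 0 in every library of both lines. Of the endothelial markers, Cdh5 was the exception at 7.92 ± 0.918 CPM in clone19, against 0.121 ± 0.0754 CPM in Fh1_fl_fl, while Pecam1 stayed at or under 0.245 CPM in every library of both lines and Tek was at 0 in clone19. In a wider endothelial list, 1 of 4 tested members rose and 2 fell, Flt1 at 0.103 ± 0.156 CPM in clone19, against 0.827 ± 0.231 CPM in Fh1_fl_fl, and Ptprb at 0.0759 ± 0.105 CPM in clone19, against 3.66 ± 0.55 CPM in Fh1_fl_fl. Of the 7 fibroblast and pericyte markers, 3 were tested and all 3 rose in clone19. Dcn and Pdgfra were counted in clone19, and Pdgfrb and Lum were at 0 in both lines. Col1a1 averaged 1.41 ± 0.442 CPM in clone19 and 0.6 ± 0.18 CPM in Fh1_fl_fl. In a wider fibroblast and pericyte list, 4 of 4 tested members rose, beside 36.8% of all genes. In bulk samples such as these, fewer cells of a type and less RNA per cell cannot be told apart.

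Across all 12671 tested genes, 9241 (72.9%) changed between clone19 and Fh1_fl_fl at an adjusted p under 0.05 (edgeR quasi-likelihood test, Benjamini-Hochberg), 4664 higher (36.8%) and 4577 lower (36.1%). In 3714 genes (29.3%) every clone19 library lay above every Fh1_fl_fl library, and in 3758 (29.7%) every clone19 library lay below. The median absolute log2 fold change over all tested genes, changed or not, was 0.475, so most genes differed by less than 2-fold. A stricter test, that the change exceeds 2-fold, was passed by 1039 genes that were higher in clone19 (8.2%) and 922 that were lower (7.28%), 1961 in all (15.5%). With libraries scaled to their totals, the median of all genes moved by -0.124 on the log2 scale and 40.68% of the changed genes were higher, in place of 50.47%. Changes within about that shift of 0 therefore have no fixed direction.

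The same 2-fold test set clone19 directly against the other 2 lines. Against clone1, 8247 genes (65.1%) passed at an adjusted p under 0.05 and 1214 (9.58%) differed over 2-fold, 607 higher and 607 lower in clone19 (4.79% each), and against Rec 1312 were higher (10.4%) and 648 lower (5.11%). A gene is called set apart here where clone19 passed the 2-fold test in the same direction against each of Fh1_fl_fl, clone1 and Rec. That held for 172 genes that were higher in clone19 (1.36%) and 87 that were lower (0.687%), which is 16.6% of the genes over 2-fold higher and 9.44% of those over 2-fold lower than in Fh1_fl_fl. With genes required to reach 1 CPM in 10 libraries 77 were set apart higher, and with fits of only the compared groups 56 were set apart lower. In 83 of the 172, each of the other 3 lines averaged under 1 CPM, and in 42 of the 87, clone19 did. Every clone19 library lay above every Fh1_fl_fl library for 172 of 172, and below for 85 of 87. In 13 genes (0.103%) clone19 was over 2-fold higher and clone1 over 2-fold lower than Fh1_fl_fl, and in 32 (0.253%) the other way round, comparisons that share the Fh1_fl_fl libraries. Since the set apart genes were chosen by their values, the counts describe them and are no further test.

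**Figure D1:**
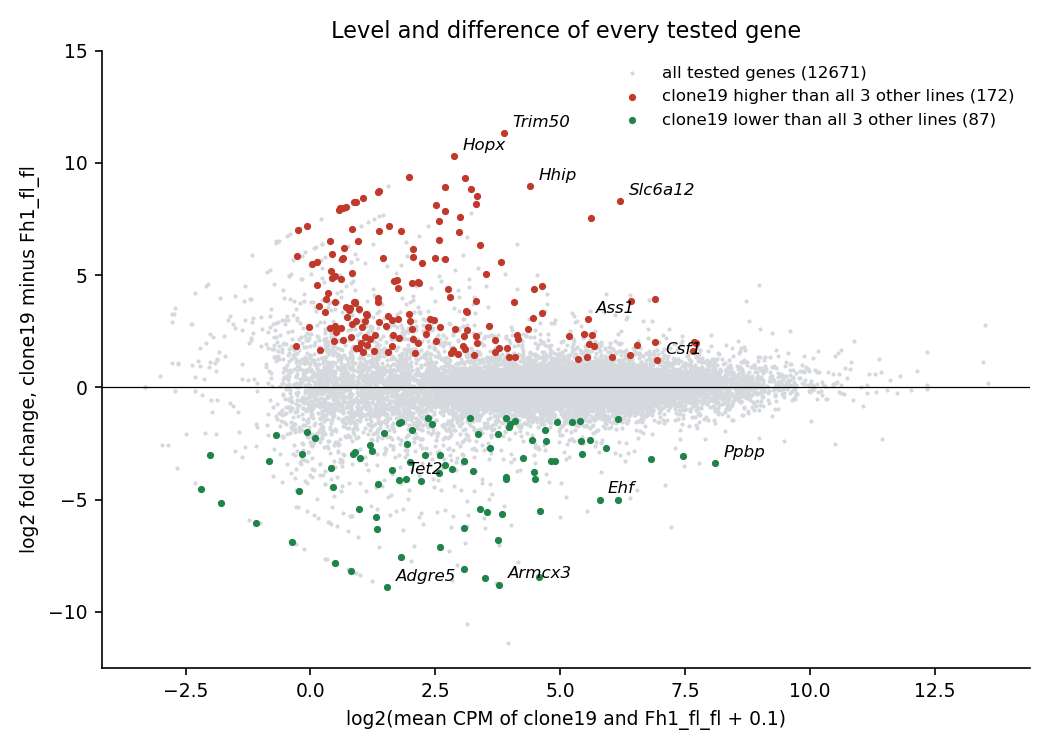
Every tested gene by its level (log2 of the mean CPM of clone19 and Fh1_fl_fl plus 0.1, horizontal) and its log2 fold change, clone19 minus Fh1_fl_fl (vertical). Red points are the 172 genes set apart higher in clone19 and green points the 87 set apart lower; fitted values of genes at 0 in a line, such as Trim50, depend on the prior count.

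Some genes had counts in clone19 and none in any other line. Trim50 (ENSMUSG00000053388; GRCm38 chromosome 5, 135353295 to 135368005, plus strand), a RING-type ubiquitin ligase known from gastric parietal cells, was at 25.9, 27.5, 33.3, 33.9 and 25.9 CPM in clone19 and had no count in any library of clone1, Rec or Fh1_fl_fl. It was at least 464-fold higher than in clone1, 575-fold than in Rec and 686-fold than in Fh1_fl_fl, bounds that take 3 counts over the whole other line as the limit that 0 allows. Hopx (ENSMUSG00000059325; chromosome 5, 77086988 to 77115121, minus strand), a small homeodomain protein that does not bind DNA, had the same pattern, at 14.8, 15.2, 15.4, 15.6 and 11.7 CPM in clone19 and 0 in the 15 libraries of the other lines. It was at least 228-fold higher than in clone1, 283-fold than in Rec and 337-fold than in Fh1_fl_fl. Every clone19 library thus held reads of both genes, and no library of another line held any.

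The 250 bases before the first listed start of Hopx are shown because the gene had no count in the other lines. They come from the RefSeq table for GRCm38.p6 (chr5:77115124-77115373, minus strand), with CG dinucleotides in capitals.
Hopx: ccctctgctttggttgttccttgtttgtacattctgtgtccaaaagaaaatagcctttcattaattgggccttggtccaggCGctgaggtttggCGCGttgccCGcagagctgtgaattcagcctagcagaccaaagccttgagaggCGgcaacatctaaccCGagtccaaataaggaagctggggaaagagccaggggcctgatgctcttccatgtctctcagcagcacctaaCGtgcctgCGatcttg
The window holds 8 CG dinucleotides. The median is 6 over the 27025 genes of that table (quartiles 2 and 16), and 16 over the 9812 tested genes with an entry (quartiles 10 and 23). DNA methylation was not measured in these samples.

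Other set apart genes are known from neurons or from vesicle transport. Negr1 (ENSMUSG00000040037; chromosome 3, 156561794 to 157316445, plus strand), a neuronal adhesion molecule of the immunoglobulin family, was at 17.6, 17, 18.4, 14.5 and 16.6 CPM in clone19 and had 1 count in all of Fh1_fl_fl. Its ratio was 1160 (95% counting interval 208 to 46000). Oprk1, the kappa opioid receptor, was at 11.4, 14.3, 13.5, 11.9 and 12.3 CPM in clone19, also with 1 count in all of Fh1_fl_fl, a ratio of 889 (159 to 35200). Both were near 0 in the other lines too. Syt7, a calcium sensor of vesicle release, averaged 19.7 ± 3.62 CPM in clone19, 0.0592 ± 0.0888 in clone1, 0.111 ± 0.102 in Rec and 0.0704 ± 0.0989 in Fh1_fl_fl. Gap43, a growth cone protein, averaged 11.7 ± 1.15 CPM in clone19, 0.207 ± 0.168 in clone1, 3.5 ± 0.543 in Rec and 0.053 ± 0.0936 in Fh1_fl_fl. Cntnap3, a contactin-associated adhesion protein, averaged 5.01 ± 1.21 CPM in clone19 and was at least 113-fold higher than in Fh1_fl_fl, where it was at 0. Vat1l averaged 18.3 ± 1.99 CPM in clone19 and had a ratio of 634 (175 to 5250) against Fh1_fl_fl. Sybu, an adaptor between kinesin and its cargo, averaged 15.8 ± 1.87 CPM in clone19, 5.09 ± 0.893 in clone1, 3.01 ± 0.141 in Rec and 0.0774 ± 0.0606 in Fh1_fl_fl.

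Some set apart genes encode secreted proteins or their partners. Stc1 and Stc2 encode stanniocalcins, glycoproteins known for a role in calcium and phosphate handling. Stc2 was at 23.6, 24, 32, 29 and 27.6 CPM in clone19, against 0.588, 0.519, 0.324, 0.573 and 0.721 CPM in Fh1_fl_fl, a log2 fold change of 5.59 (SE 0.2, adjusted p = 4.84e-17). Stc1 averaged 11.2 ± 2.59 CPM in clone19 and 0.0415 ± 0.0929 CPM in Fh1_fl_fl, a ratio of 388 (107 to 3210). clone1 averaged 1.5 ± 0.619 CPM of Stc2 and 0.279 ± 0.242 CPM of Stc1. Ostn, which encodes osteocrin, was at 13.6, 14.1, 14.7, 11.3 and 9.93 CPM in clone19 and averaged 0.0432 ± 0.0644 CPM in Fh1_fl_fl, a ratio of 290 (98.6 to 1410). Osteocrin binds the natriuretic peptide clearance receptor, encoded by Npr3. Npr3, named after its values were seen, was also set apart, at 191 ± 7.29 CPM in clone19, 39.2 ± 3.85 in clone1, 76 ± 5.73 in Rec and 47.5 ± 3.33 in Fh1_fl_fl. Hhip, a membrane protein that binds Hedgehog ligands and dampens their signal, was at 47.6, 37, 41, 38.7 and 44 CPM in clone19, against 0.098, 0.104, 0, 0 and 0.144 CPM in Fh1_fl_fl (log2 fold change 8.97, SE 0.23, adjusted p = 6.67e-22). clone1 averaged 7.06 ± 1.48 CPM of Hhip and Rec 0.282 ± 0.0832 CPM, so clone19 was the highest of the 4 lines without overlap.

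A betaine transporter rose and an enzyme of betaine synthesis fell. Slc6a12, the betaine and GABA transporter that kidney cells use against osmotic stress, was at 157, 134, 152, 140 and 149 CPM in clone19, against 0.49, 0.623, 0.324, 0.287 and 0.576 CPM in Fh1_fl_fl. Its neighbour Slc6a13, a related GABA transporter of the proximal tubule, was at 17.3, 19.7, 22.2, 19.6 and 21.3 CPM in clone19 and had 3 counts in all of Fh1_fl_fl, a ratio of 469 (160 to 2280). Both genes lie on chromosome 6 between 121300227 and 121365775. clone1 averaged 49.8 ± 5.6 CPM of Slc6a12 and 5.43 ± 0.739 CPM of Slc6a13, and clone19 exceeded it by 1.56 (adjusted p = 4.21e-16) and 1.87 (adjusted p = 3.6e-13) on the log2 scale. Chdh, the mitochondrial dehydrogenase that starts the oxidation of choline to betaine, had 2 counts in all of clone19, against 16.6, 12.2, 19.9, 18 and 16.6 CPM in Fh1_fl_fl, a ratio of 340 in the opposite direction (94 to 2810). It averaged 1.16 ± 0.357 CPM in clone1 and 1.86 ± 0.541 CPM in Rec. Slc6a6, the taurine transporter, fell to 111 ± 8.62 CPM in clone19, against 327 ± 28.6 CPM in Fh1_fl_fl, and Slc6a19, which takes up neutral amino acids, to 2.23 ± 0.677 CPM, against 9.19 ± 0.799 CPM. Of the 13 tested proximal tubule genes, 6 rose (46.2%) and 4 fell (30.8%), near the 36.8 and 36.1% of all genes.

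Other set apart genes that were higher are listed by role. Ddr2, a receptor tyrosine kinase activated by fibrillar collagen, averaged 97.1 ± 8.95 CPM in clone19, 34 ± 4.68 in clone1, 1.23 ± 0.928 in Rec and 0.523 ± 0.245 in Fh1_fl_fl. Cd177, a surface glycoprotein known from neutrophils, averaged 7.62 ± 1.15 CPM in clone19 and was at least 181-fold higher than in Fh1_fl_fl. B4galnt2, which builds a terminal sugar of surface glycans, averaged 15.4 ± 2.12 CPM in clone19, 4.36 ± 0.771 in clone1, 3.22 ± 1.02 in Rec and 0.108 ± 0.107 in Fh1_fl_fl. Cyp4a12b, a fatty acid hydroxylase, averaged 6.83 ± 0.753 CPM in clone19, but it and its neighbour Cyp4a12a are close copies whose reads may be split between them. Dnah12, a heavy chain of the ciliary dynein, averaged 11.6 ± 0.902 CPM in clone19 and under 0.2 CPM in each other line. The kinase Stk33 averaged 5.75 ± 1.56 CPM in clone19, 1.94 ± 0.533 in clone1 and 0.0242 ± 0.0341 in Fh1_fl_fl. At higher levels, and named after their values were seen, the glypican Gpc4 averaged 74.7 ± 5.33 CPM in clone19, 6.27 ± 0.792 in clone1, 0.127 ± 0.121 in Rec and 14.2 ± 1.09 in Fh1_fl_fl. The secreted protease inhibitor gene Wfdc2 averaged 330 ± 19.5 CPM in clone19, 45.2 ± 9.32 in clone1, 7.21 ± 0.874 in Rec and 80.4 ± 4.93 in Fh1_fl_fl. The prostaglandin transporter gene Slco2a1 averaged 336 ± 41.9 CPM in clone19, 88.8 ± 10.6 in clone1, 139 ± 17.1 in Rec and 86.6 ± 7.01 in Fh1_fl_fl.

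Among the genes set apart lower, 42 were near absent from clone19 and counted elsewhere. Armcx3 (ENSMUSG00000049047; chromosome X, 134756595 to 134761455, plus strand), a protein of the outer mitochondrial membrane, was at 0.332, 0, 0, 0 and 0 CPM in clone19, against 26.1, 30.7, 26.3, 29.5 and 23.4 CPM in Fh1_fl_fl. Its ratio was 543 (150 to 4490) against Fh1_fl_fl and 535 (148 to 4430) against clone1, where it averaged 27 ± 3.31 CPM, and Rec averaged 0.822 ± 0.243 CPM. Adgre5 (CD97), an adhesion receptor coupled to G proteins, had no count in clone19 and 5.19, 7.48, 6.16, 4.01 and 5.12 CPM in Fh1_fl_fl, at least 73-fold lower. Cldn8, a claudin of distal nephron tight junctions, had 2 counts in all of clone19, against 22.1, 22.5, 25, 19 and 23.3 CPM in Fh1_fl_fl, a ratio of 450 (124 to 3720). Adgra1, a second adhesion receptor, averaged 0.128 ± 0.175 CPM in clone19 and 47.2 ± 3.89 CPM in Fh1_fl_fl. clone1 and Rec were also low in Adgre5, Cldn8 and Adgra1, at means between 0.365 and 3.7 CPM, so for these genes clone19 had the lowest mean of 3 low lines. BC034090 had 1 count in all of clone19 and 6.81 ± 0.691 CPM in Fh1_fl_fl. Hdgfl3 averaged 0.237 ± 0.216 CPM in clone19 and 26.6 ± 2.47 CPM in Fh1_fl_fl, the kinesin Kif12 0.211 ± 0.197 and 16.3 ± 2.35 CPM, and the fatty acid elongation enzyme Hacd4 1.69 ± 0.306 and 28.4 ± 1.67 CPM.

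Transcription factors and chromatin proteins were among the genes set apart lower. Gata4 (ENSMUSG00000021944; chromosome 14, 63198922 to 63271692, minus strand), a zinc finger factor of heart, gonad and gut, was at 0.332, 0.346, 0.35, 0.197 and 0.717 CPM in clone19, against 7.3, 6.75, 7.46, 6.23 and 7.2 CPM in Fh1_fl_fl. It averaged 6.59 ± 0.967 CPM in clone1 and 6.6 ± 1.12 CPM in Rec, so clone19 was the exception among 4 lines (log2 fold change against Fh1_fl_fl -4.1, SE 0.24, adjusted p = 2.5e-14). Ehf, an ETS factor of epithelia, was at 1.16, 5.07, 3.5, 3.25 and 3.17 CPM in clone19, against 102, 93.7, 111, 118 and 111 CPM in Fh1_fl_fl, with 12.2 ± 1.21 CPM in clone1. H2afy2, the histone variant macroH2A2, averaged 0.49 ± 0.128 CPM in clone19, 9.33 ± 1.86 in clone1, 15.9 ± 1.16 in Rec and 22.6 ± 2.29 in Fh1_fl_fl. Stat5a, a factor downstream of cytokine and growth hormone receptors that was named after its values were seen, averaged 0.452 ± 0.252 CPM in clone19, 3.06 ± 0.362 in clone1, 2.32 ± 0.631 in Rec and 5.57 ± 0.525 in Fh1_fl_fl. The ubiquitin ligase gene Neurl3 averaged 2.43 ± 0.513 CPM in clone19, 6.89 ± 1.22 in clone1, 11.7 ± 1.37 in Rec and 42.5 ± 4.35 in Fh1_fl_fl.

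Tet2 was the TET enzyme that differed most. Tet2 (ENSMUSG00000040943; chromosome 3, 133463679 to 133545139, minus strand), which oxidises 5-methylcytosine and needs 2-oxoglutarate, was at 0.166, 0.461, 0.525, 0.197 and 0.409 CPM in clone19, against 7.4, 5.09, 6.08, 5.95 and 6.7 CPM in Fh1_fl_fl. The log2 fold change was -4.14 (SE 0.25, adjusted p = 2.96e-14), and against clone1, which averaged 4.64 ± 0.9 CPM, it was -3.67 (adjusted p = 3.46e-12). Tet3, named after its values were seen, fell to 24.4 ± 2.78 CPM in clone19, against 52.4 ± 3.35 CPM in Fh1_fl_fl (log2 fold change -1.11, adjusted p = 8.12e-11), and Tet1 averaged 0.125 ± 0.228 CPM in clone19 and 0.15 ± 0.125 CPM in Fh1_fl_fl, below the filter on low counts. Dnmt3b, which adds methyl groups to unmethylated DNA, averaged 0.301 ± 0.161 CPM in clone19, 0.92 ± 0.467 in clone1, 3.49 ± 0.784 in Rec and 5.04 ± 0.561 in Fh1_fl_fl. Of the 33 tested dioxygenases of chromatin and methyltransferases, 17 rose (51.5%) and 8 fell (24.2%), beside 36.8 and 36.1% of all genes. Their median log2 fold change was 0.18. Egln3, a HIF prolyl hydroxylase and itself a HIF target, rose to 56.2 ± 3.41 CPM in clone19, against 18.7 ± 2.07 CPM in Fh1_fl_fl.

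The 250 bases before the Tet2 start are shown beside this result, from the RefSeq table for GRCm38.p6 (chr3:133544391-133544640, minus strand), with CG dinucleotides in capitals.
Tet2: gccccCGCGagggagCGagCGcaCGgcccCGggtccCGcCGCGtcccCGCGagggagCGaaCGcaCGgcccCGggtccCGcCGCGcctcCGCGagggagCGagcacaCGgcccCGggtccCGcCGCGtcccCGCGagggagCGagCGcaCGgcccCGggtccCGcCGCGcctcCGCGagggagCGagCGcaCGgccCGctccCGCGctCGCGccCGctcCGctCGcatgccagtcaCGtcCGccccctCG
The window holds 51 CG dinucleotides, against the 8 of Hopx and the medians of 6 over the table and 16 over tested genes.

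**Figure D2:**
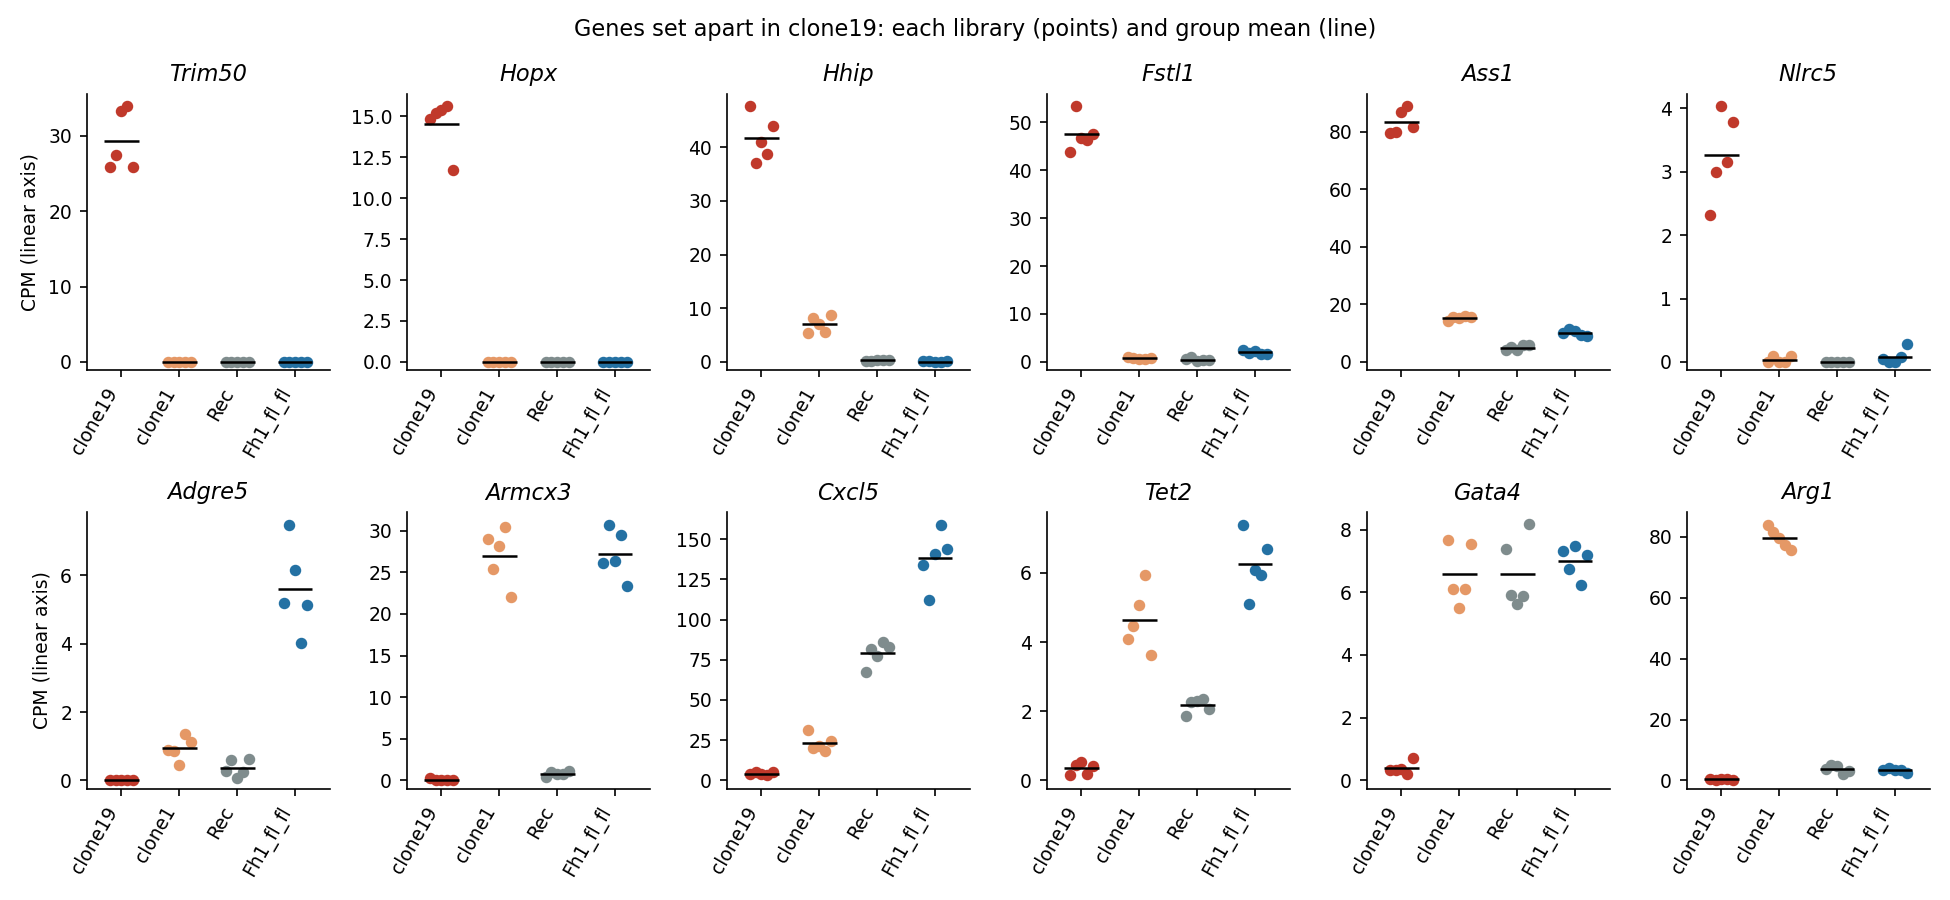
CPM of 12 genes set apart in clone19 (vertical, linear scale from 0), with 1 point for each of the 5 libraries of clone19, clone1, Rec and Fh1_fl_fl and a line at the group mean. The upper 6 panels are genes that were higher in clone19, and the lower 6 are genes that were lower; Gata4 stood at 6.59 to 6.99 CPM in the other 3 lines, and Arg1 at 79.6 CPM in clone1.

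Some set apart genes are neighbours. With a gap of at most 200 kb between gene bodies, 23 of the 172 higher genes fell into 11 groups and 8 of the 87 lower genes into 3. The same grouping was not counted over all tested genes. Whether set apart genes lie closer together than other genes was therefore not tested. The group with the most genes lies on chromosome 5 between 90759360 and 91093646 and holds Cxcl5, Ppbp, Cxcl1 and Ereg. Cxcl1, Cxcl5 and Ppbp encode chemokines that attract neutrophils. Cxcl5 was at 4.31, 4.95, 3.85, 3.25 and 5.12 CPM in clone19, against 134, 112, 141, 159 and 144 CPM in Fh1_fl_fl. Ppbp was at 44.8, 57.7, 47.1, 48.7 and 42.7 CPM in clone19, against 503, 442, 533, 514 and 503 CPM in Fh1_fl_fl. Both lay far below every library of Fh1_fl_fl, with log2 fold changes of -5 (SE 0.14, adjusted p = 6.28e-21) for Cxcl5 and -3.37 (SE 0.09, adjusted p = 2.06e-21) for Ppbp. Cxcl1 had 3 counts in all of clone19 and averaged 1.54 ± 0.737 CPM in clone1, 12.7 ± 1.66 CPM in Rec and 11.9 ± 1.28 CPM in Fh1_fl_fl. Ereg, a ligand of the EGF receptor, had no count in clone19 and averaged 4.7 ± 0.835 CPM in clone1 and 0.239 ± 0.243 CPM in Fh1_fl_fl, at least 64.5-fold lower than in clone1 and 3.45-fold lower than in Fh1_fl_fl, whose libraries overlapped with clone19 at 0. Ppbp and Ereg fall outside the rule for named genes and are given to complete the group. Groups of genes that were higher included Slc6a13 with Slc6a12, Lmo1 with Stk33 and Trim66, Hmcn2 with Ass1, Casp1 with Casp12 and Cyp4a12a with Cyp4a12b.

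Il1rl1 and Il1r1, receptors of the interleukin 1 family, fell. Il1rl1, the receptor of interleukin 33, was at 4.98, 7.03, 4.38, 4.23 and 5.94 CPM in clone19, against 170, 176, 155, 153 and 162 CPM in Fh1_fl_fl, and Il1r1, the receptor of interleukin 1, had a mean of 0.106 ± 0.107 CPM in clone19 and 6.23 ± 0.908 CPM in Fh1_fl_fl. Both were also low in clone1, at 7.72 ± 1.17 and 0.746 ± 0.294 CPM. Csf1, the growth factor of macrophages, was set apart higher, at 185, 156, 170, 156 and 188 CPM in clone19, against 84.7, 72.3, 72.2, 67.8 and 71.8 CPM in Fh1_fl_fl, and was named after its values were seen. Of the 33 tested cytokines, chemokines and receptors, 14 rose and 14 fell (42.4% each), beside 36.8 and 36.1% of all genes. Their median log2 fold change was 0.02, so the list had no common direction. Lepr, the leptin receptor, averaged 0.46 ± 0.4 CPM in clone19, 1.78 ± 0.407 in clone1, 56.5 ± 5.43 in Rec and 20.4 ± 1.58 in Fh1_fl_fl.

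Some genes of antigen presentation and DNA sensing rose and others fell. Nlrc5, the transactivator of MHC class I genes, was at 2.32, 3, 4.03, 3.15 and 3.79 CPM in clone19, against 0.049, 0, 0, 0.0717 and 0.288 CPM in Fh1_fl_fl. Tap2, which carries peptides into the endoplasmic reticulum, was at 9.95, 5.64, 9.45, 7.77 and 10.4 CPM in clone19, against 1.47, 2.39, 0.892, 0.86 and 1.08 CPM in Fh1_fl_fl. The class I gene H2-D1, named after its values were seen, averaged 123 ± 6.89 CPM in clone19, 51.6 ± 7.18 in clone1, 53.2 ± 2.54 in Rec and 45.4 ± 1.56 in Fh1_fl_fl, although class I genes have close copies and their counts are uncertain. Oas1a, a sensor of double-stranded RNA, averaged 4.44 ± 0.545 CPM in clone19 and 0.56 ± 0.216 CPM in Fh1_fl_fl. Nlrc5, Tap2, H2-D1 and Oas1a are the 4 set apart higher members of a list of 26 tested genes. Of all genes, 1.36% were set apart higher. In the list, 10 of 26 tested members rose (38.5%) and 12 fell (46.2%), near the 36.8 and 36.1% of all genes. H2-T23, a nonclassical class I gene, fell to 0.342 ± 0.0953 CPM in clone19, against 3.37 ± 0.568 CPM in Fh1_fl_fl. Outside the list, and named after their values were seen, Aim2, a cytosolic DNA sensor, averaged 12.9 ± 3.06 CPM in clone19, 1.44 ± 0.56 in clone1, 0.493 ± 0.21 in Rec and 0.786 ± 0.52 in Fh1_fl_fl. Casp1, the protease that inflammasomes activate, averaged 1.92 ± 0.55 CPM in clone19 and 0.071 ± 0.0588 CPM in Fh1_fl_fl. Cgas, a second DNA sensor, was lower at 1.06 ± 0.304 CPM in clone19, 3.21 ± 0.358 in clone1, 17.6 ± 2 in Rec and 6.34 ± 0.405 in Fh1_fl_fl, and so did Ripk3, a kinase of necroptosis, at 0.505 ± 0.292 CPM in clone19 and 4.02 ± 0.394 CPM in Fh1_fl_fl. Complement C3, also named after its values were seen, averaged 23.3 ± 1.33 CPM in clone19, 0.797 ± 0.543 in clone1, 0.434 ± 0.227 in Rec and 6.99 ± 0.844 in Fh1_fl_fl.

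Several proteins that bind TGF-beta family ligands rose in clone19. Fstl1 and Fstl3 encode secreted proteins related to follistatin, of which Fstl3 binds activins, and Nog encodes noggin, which binds BMPs. Fstl1 was at 43.8, 53.3, 46.6, 46.3 and 47.6 CPM in clone19, against 2.45, 1.97, 2.35, 1.65 and 1.66 CPM in Fh1_fl_fl (log2 fold change 4.54, SE 0.13, adjusted p = 4.42e-21), with 0.784 ± 0.157 CPM in clone1 and 0.498 ± 0.294 CPM in Rec. Fstl3 was at 8.29, 7.03, 9.63, 7.08 and 9.93 CPM in clone19, against 0.245, 0.623, 0.0811, 0.358 and 0.36 CPM in Fh1_fl_fl (log2 fold change 4.68, SE 0.28, adjusted p = 3.74e-14). Nog was at 12.8, 13.5, 13, 12.1 and 11.2 CPM in clone19, against 1.81, 2.6, 2.11, 2.44 and 1.59 CPM in Fh1_fl_fl (log2 fold change 2.58, SE 0.16, adjusted p = 1.22e-13). The lines did not overlap for any of the 3, and each was set apart. Bmp4, a ligand, rose to 14.5 ± 1.28 CPM in clone19, against 1.8 ± 0.272 CPM in Fh1_fl_fl, but was higher still in clone1 at 27.7 ± 1.24 CPM. Of 44 tested TGF-beta and BMP genes, 23 rose and 12 fell (median log2 fold change 0.25), beside 36.8 and 36.1% of all genes. Dcn, the proteoglycan decorin, averaged 8.5 ± 0.597 CPM in clone19, 1.16 ± 0.402 in clone1, 0.31 ± 0.224 in Rec and 0.299 ± 0.147 in Fh1_fl_fl, and belongs to the fibroblast markers whose sum ran from 11.9 to 15.3 CPM in clone19 and from 1.003 to 1.62 CPM in Fh1_fl_fl. The part of other cells in it was not tested.

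The matrix and its receptors changed in composition. Col12a1, a fibril-associated collagen, was at 94.1, 65.9, 66.3, 75.8 and 97.2 CPM in clone19, against 27, 28.9, 18.1, 18.1 and 20.9 CPM in Fh1_fl_fl (log2 fold change 1.82, SE 0.14, adjusted p = 3.18e-12). clone1 went the other way at 5.87 ± 1.4 CPM, so clone19 exceeded it by 3.77 on the log2 scale (adjusted p = 9.37e-17). Col4a1, of the basement membrane, averaged 34.5 ± 6.61 CPM in clone19, 16 ± 3.55 in clone1, 0.175 ± 0.182 in Rec and 0.427 ± 0.144 in Fh1_fl_fl. Fn1, fibronectin, was at 4570, 2810, 3530, 3190 and 4640 CPM in clone19, against 1780, 1850, 1320, 1250 and 1590 CPM in Fh1_fl_fl, without overlap. Of 24 tested collagens and laminins, 17 rose (70.8%) and 5 fell (20.8%), with a median of 0.65, beside 36.8 and 36.1% of all genes. Among the receptors, Itga2, the alpha subunit of a collagen receptor, was set apart lower at 12.6, 9.1, 12.3, 8.07 and 8.7 CPM in clone19, against 90.3, 85.5, 70.3, 59.2 and 77.5 CPM in Fh1_fl_fl. Itga7, a laminin receptor subunit, rose to 10.3 ± 1.88 CPM in clone19, against 0.669 ± 0.196 CPM in Fh1_fl_fl, and Itgb7, of a leukocyte integrin, to 4.33 ± 0.892 CPM, against 0.269 ± 0.242 CPM. Both had higher means in clone1, at 38.6 ± 8.22 and 19.7 ± 2.96 CPM.

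Proteases and their inhibitors split 9 to 9 among 20 tested members (45% each), beside 36.8 and 36.1% of all genes. Reck, a membrane-anchored inhibitor of metalloproteases, was set apart higher at 8.2 ± 0.978 CPM in clone19, 2.29 ± 0.28 in clone1, 1.15 ± 0.558 in Rec and 1.55 ± 0.341 in Fh1_fl_fl. Timp1, a secreted inhibitor of the same enzymes, averaged 42.6 ± 3.3 CPM in clone19 and 12.9 ± 0.742 CPM in Fh1_fl_fl. Mmp15, a membrane-type metalloprotease, was at 0, 0.115, 0.7, 0.197 and 0.205 CPM in clone19, against 16.2, 21.5, 16.9, 12.2 and 18.2 CPM in Fh1_fl_fl. It was also low in clone1 and Rec, at means of 0.066 and 0.579 CPM. Plat, tissue plasminogen activator, fell to 238 ± 8.03 CPM in clone19, against 563 ± 47.3 CPM in Fh1_fl_fl, while clone1 averaged 686 ± 66 CPM. Htra1, a secreted serine protease, rose to 432 ± 21.2 CPM in clone19, against 85.2 ± 7.49 CPM in Fh1_fl_fl. It was also high in clone1 and Rec, at 381 ± 71.4 and 316 ± 20 CPM.

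Enzymes that make and consume arginine differed between the 2 clones. Ass1 (ENSMUSG00000076441; chromosome 2, 31470207 to 31520672, plus strand), which joins citrulline and aspartate into argininosuccinate, was at 79.6, 79.9, 86.8, 89 and 81.5 CPM in clone19, against 10.1, 11.4, 10.8, 9.46 and 8.86 CPM in Fh1_fl_fl. Arg1 (ENSMUSG00000019987; chromosome 10, 24915221 to 24927484, minus strand), which splits arginine into urea and ornithine, was at 0.498, 0.23, 0.525, 0.394 and 0.307 CPM in clone19, against 3.53, 4.05, 3.57, 3.3 and 2.59 CPM in Fh1_fl_fl. Ass1 was 2.44 higher than in clone1 on the log2 scale (adjusted p = 1.92e-19) and Arg1 7.7 lower (adjusted p = 3.31e-22), since clone1 averaged 15.4 ± 0.66 CPM of Ass1 and 79.6 ± 3.34 CPM of Arg1. Arg1 thus fell in clone19 and rose in clone1 against the same control libraries. Asl, which splits argininosuccinate into arginine and fumarate, fell to 33.9 ± 2.85 CPM in clone19, against 53.4 ± 2.57 CPM in Fh1_fl_fl. Downstream, Odc1, which turns ornithine into the polyamine putrescine, rose to 195 ± 10.1 CPM in clone19, against 97.4 ± 4.15 CPM in Fh1_fl_fl, and Srm, the spermidine synthase, to 99.9 ± 7.54 CPM, against 43.2 ± 3.45 CPM. Both also had higher means than Fh1_fl_fl in the other lines. Odc1 averaged 187 ± 14.2 CPM in clone1 and 656 ± 26.9 CPM in Rec, and Srm 76.4 ± 5.19 and 122 ± 11.5 CPM. Of 17 tested genes of the list, 6 rose (35.3%) and 9 fell (52.9%), beside 36.8 and 36.1% of all genes.

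Most HIF targets and glycolysis genes rose. Outside glycolysis, 29 of 32 tested HIF targets rose (90.6%) and 2 fell (6.2%), with a median log2 fold change of 1.3. Of 18 glycolysis genes, 17 rose (94.4%) and 0 fell, with a median of 0.96, and the remaining gene did not pass. At the same threshold (edgeR, adjusted p under 0.05), 36.8% of all genes rose and 36.1% fell. Vegfa was at 331, 327, 350, 333 and 348 CPM in clone19, against 114, 104, 104, 98.1 and 116 CPM in Fh1_fl_fl. Ero1l, an oxidase that forms disulfides in the endoplasmic reticulum, was at 785, 892, 781, 748 and 731 CPM in clone19, against 57.2, 57.5, 50.2, 50.7 and 54.6 CPM in Fh1_fl_fl. Pgk1, phosphoglycerate kinase, was at 1340, 1470, 1390, 1410 and 1230 CPM in clone19, against 509, 483, 550, 549 and 507 CPM in Fh1_fl_fl. No clone19 library of these genes overlapped with Fh1_fl_fl. Set against clone1 directly, 17 of 18 glycolysis genes stayed within the 2-fold test and 1 was over 2-fold lower, beside 4.79% of all genes in each direction, and the median difference was -0.61 (log2, clone19 minus clone1). Over the HIF targets outside glycolysis it was -0.27. Both of the set apart HIF targets, among them Stc2, were higher in clone19.

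The 250 bases before the start of Ldha (first of 2 listed starts; chr7:46845554-46845803, plus strand) and of Pgk1 (chrX:106186850-106187099, plus strand) are shown for the letters ACGTG, the core of the hypoxia response element, in capitals on either strand. Ldha, lactate dehydrogenase, rose to 2160 ± 80.8 CPM in clone19, against 1180 ± 88.1 CPM in Fh1_fl_fl.
Ldha: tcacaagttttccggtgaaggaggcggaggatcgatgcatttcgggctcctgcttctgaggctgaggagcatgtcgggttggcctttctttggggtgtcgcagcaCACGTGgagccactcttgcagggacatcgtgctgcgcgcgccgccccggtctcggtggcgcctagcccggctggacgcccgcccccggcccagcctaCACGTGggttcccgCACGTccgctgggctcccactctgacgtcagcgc
Pgk1: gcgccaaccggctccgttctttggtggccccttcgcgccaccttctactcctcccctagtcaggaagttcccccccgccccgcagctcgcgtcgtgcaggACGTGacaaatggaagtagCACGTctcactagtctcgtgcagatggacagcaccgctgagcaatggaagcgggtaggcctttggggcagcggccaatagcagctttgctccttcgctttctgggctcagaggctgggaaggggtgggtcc
The letters occur in the windows of 8 of the 18 glycolysis genes (44.4%), against 18.5% of the 27025 genes of the RefSeq table for GRCm38.p6 and 25.3% of the 9812 tested genes with an entry. A match is a description of the sequence and not of binding.

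Most genes of the amino acid response, the programme that ATF4 drives when amino acids are short, rose as well. Of 30 tested genes, 26 rose (86.7%) and 3 fell (10%), with a median log2 fold change of 1.09. Among 20 aminoacyl tRNA synthetases, 18 rose (90%) and 2 fell (10%), with a median of 0.66. Of all genes, 36.8% rose and 36.1% fell. Asns, asparagine synthetase, was at 627, 627, 554, 612 and 598 CPM in clone19, against 172, 212, 171, 178 and 159 CPM in Fh1_fl_fl. Ddit3, a transcription factor of the stress response, was at 216, 216, 194, 216 and 186 CPM in clone19, against 13.3, 13.2, 14.5, 15.1 and 12.2 CPM in Fh1_fl_fl. Chac1, which degrades glutathione and was named after its values were seen, averaged 120 ± 8.99 CPM in clone19 and 56.2 ± 6.57 CPM in Fh1_fl_fl. All 3 were higher in every clone19 library, and Asns and Ddit3 were lower than in clone1, by 0.68 (adjusted p = 3.38e-09) and 0.73 (adjusted p = 3.27e-10) on the log2 scale. Gdf15, a secreted stress hormone, went beyond clone1, at 1490, 922, 1250, 1490 and 1490 CPM in clone19, 587 ± 92.9 CPM in clone1 and 258, 314, 209, 156 and 228 CPM in Fh1_fl_fl. Rec, labelled Fh1 wt re-expressed, averaged 544 ± 27.9 CPM of Asns, near the clone19 mean of 604 CPM. Chac1 was at 91.3 CPM or more in every Rec library, against at most 67.5 CPM in Fh1_fl_fl. The Rec means of Ddit3 and Gdf15 were nearer to Fh1_fl_fl, at 37.6 ± 3.77 and 292 ± 20.7 CPM. How much of the rise of the whole list Rec shared was not tested.

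The windows of Asns (chr6:7693210-7693459, minus strand) and Chac1 (chr2:119350992-119351241, plus strand) are shown for TGATGNAA, the core of the amino acid response element, in capitals on either strand.
Asns: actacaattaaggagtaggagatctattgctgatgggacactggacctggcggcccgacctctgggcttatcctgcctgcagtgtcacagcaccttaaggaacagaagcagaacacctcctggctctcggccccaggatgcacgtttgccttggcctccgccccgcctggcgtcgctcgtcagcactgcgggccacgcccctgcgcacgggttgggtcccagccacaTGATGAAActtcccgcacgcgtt
Chac1: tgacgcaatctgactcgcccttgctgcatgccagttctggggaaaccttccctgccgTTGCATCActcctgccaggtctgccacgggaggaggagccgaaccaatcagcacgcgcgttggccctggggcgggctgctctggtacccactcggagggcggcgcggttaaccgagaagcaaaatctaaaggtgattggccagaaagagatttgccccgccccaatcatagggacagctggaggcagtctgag
The letters occur in the windows of 7 of the 26 genes of the list found in the table (26.9%), against 3.9% of all 27025 and 2.4% of tested genes with an entry.

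NRF2 targets separated clone19 from clone1. Of 38 tested targets, 24 rose (63.2%) and 11 fell (28.9%) against Fh1_fl_fl, beside 36.8 and 36.1% of all genes. Their median log2 fold change was 0.74. Against clone1, 16 were over 2-fold lower and 0 over 2-fold higher, beside 4.79% of all genes in each direction. The median difference from clone1 was -1.05. Hmox1, heme oxygenase 1, was at 1010, 899, 968, 981 and 968 CPM in clone19, against 39.7, 47.1, 40.4, 39.8 and 40.3 CPM in Fh1_fl_fl, and exceeded clone1, at 541 ± 62 CPM, by 0.84 on the log2 scale (adjusted p = 3.96e-11). Slc7a11, the cystine importer, was at 166, 156, 161, 155 and 162 CPM in clone19, against 657 ± 104 CPM in clone1 and 10.1, 15.4, 7.05, 5.73 and 8.57 CPM in Fh1_fl_fl. Hmox1 thus stood highest in clone19 and Slc7a11 between the other lines. Gclm, the modifier subunit of glutamate-cysteine ligase, was at 78.5, 82.5, 77, 77.4 and 72.1 CPM in clone19 and 89.2, 92.3, 86.1, 96.6 and 91.1 CPM in Fh1_fl_fl, a fall of 0.23 on the log2 scale (adjusted p = 0.00186), and 2.39 lower than clone1 (adjusted p = 5.27e-21). Gsta1, a glutathione transferase with close copies and hence an uncertain count, averaged 11.6 ± 3.65 CPM in clone19, 169 ± 14.5 in clone1 and 0.392 ± 0.309 in Fh1_fl_fl. In the windows before the starts of 31 targets found in the RefSeq table, TGACNNNGC, the core of the antioxidant response element, occurs in 8 (25.8%), against 11.5% of all 27025 and 14.2% of tested genes with an entry, on either strand. In the heme and iron list, 8 of 21 rose and 10 fell: the iron exporter Slc40a1 fell to 42.2 ± 3.54 CPM in clone19, against 104 ± 4.2 CPM in Fh1_fl_fl, and Uros, an enzyme of heme synthesis, to 2.97 ± 0.437 CPM, against 10.8 ± 1.47 CPM.

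**Figure D3:**
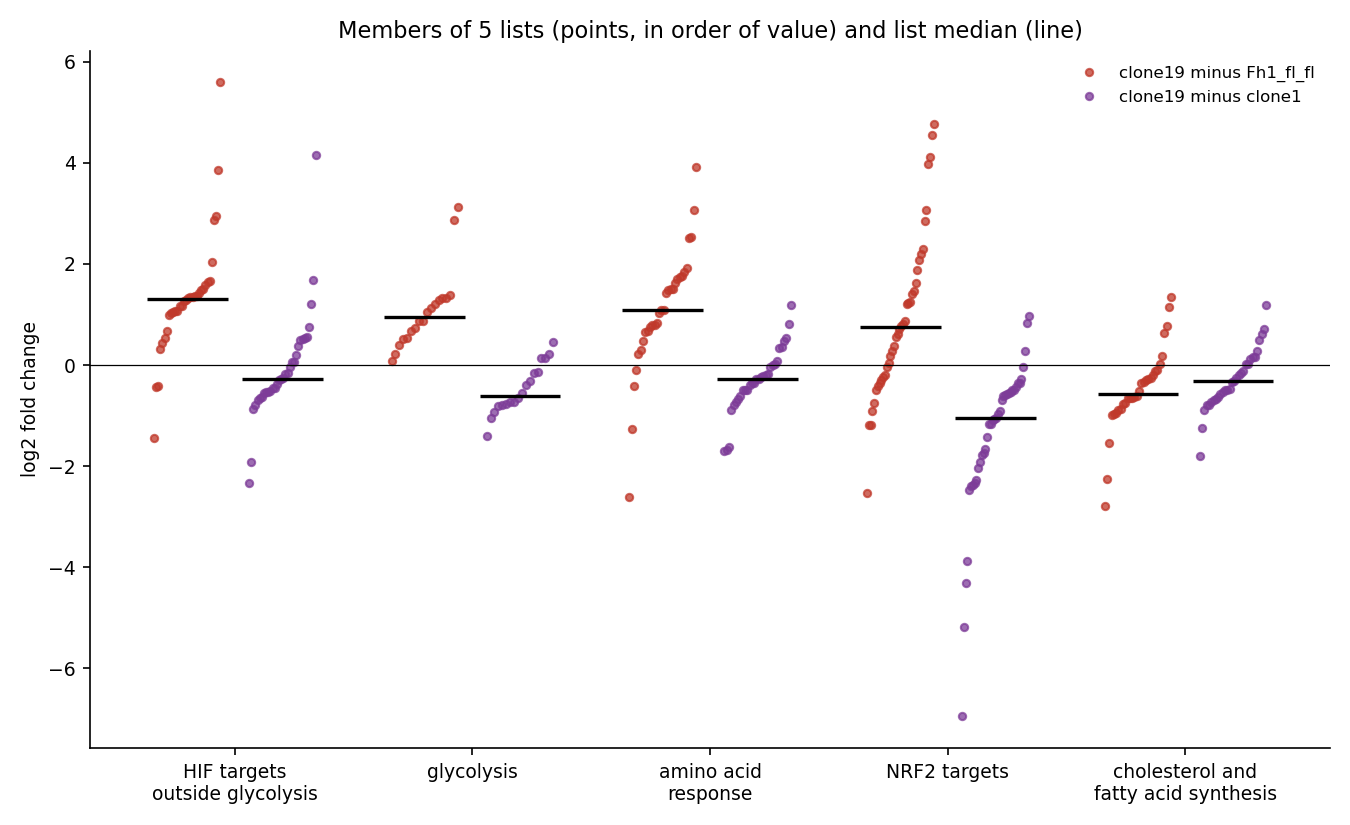
Log2 fold change (vertical) of each tested member of 5 lists (horizontal), clone19 minus Fh1_fl_fl in red and clone19 minus clone1 in purple, with points in order of value and a line at the median. The NRF2 medians are 0.74 against Fh1_fl_fl and -1.05 against clone1, and those of HIF targets outside glycolysis 1.3 and -0.27.

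In the list of the TCA cycle and pyruvate entry, 15 of 30 tested genes rose (50%) and 5 fell (16.7%), beside 36.8 and 36.1% of all genes. Their median was 0.17. Pcx, which makes oxaloacetate from pyruvate, rose to 74.6 ± 10.5 CPM in clone19, against 23.9 ± 1.95 CPM in Fh1_fl_fl, and stood at 77.8 ± 10.9 CPM in clone1. Dlat, a subunit of pyruvate dehydrogenase, averaged 209 ± 4.81 CPM in clone19, 154 ± 7.44 in clone1, 139 ± 3.47 in Rec and 99.3 ± 3.61 in Fh1_fl_fl. Idh2, mitochondrial isocitrate dehydrogenase, fell to 147 ± 5.96 CPM in clone19, against 261 ± 9.45 CPM in Fh1_fl_fl, where clone1 stood at 294 ± 18 CPM. Of 44 nuclear genes of the respiratory chain, 22 rose and 2 fell, with a median of 0.18 that was 0.05 with libraries scaled to their totals. Transcripts of the mitochondrial genome moved apart: mt-Co1 averaged 15600 ± 1870 CPM in clone19 and 7040 ± 780 CPM in Fh1_fl_fl, mt-Nd5 averaged 2300 ± 427 and 1300 ± 157 CPM, and mt-Nd1 fell to 1550 ± 251 CPM in clone19, against 2750 ± 366 CPM in Fh1_fl_fl. The median of the 14 tested was 0.22, and -0.1 without clone19 replicate 3, so the list had no fixed direction.

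Most lipid synthesis genes fell. Of 30 tested genes of cholesterol and fatty acid synthesis, 20 fell and 5 rose (median -0.57), beside 36.1 and 36.8% of all genes. Elovl6, a fatty acid elongase, was at 32.2, 29.7, 33.1, 32.9 and 34.5 CPM in clone19, against 162, 156, 148, 149 and 160 CPM in Fh1_fl_fl, and Idi1, of the cholesterol pathway, averaged 63.5 ± 8.66 and 185 ± 13.7 CPM. Both were also lower in clone1 than in Fh1_fl_fl, at means of 29.1 and 87.8 CPM. Scd1, the stearoyl-CoA desaturase, went against the list at 717 ± 36.2 CPM in clone19 and 280 ± 17.1 CPM in Fh1_fl_fl. Of 23 fatty acid oxidation genes, 12 fell and 6 rose. Cpt1a, which brings fatty acids into mitochondria, fell to 99.1 ± 6.93 CPM in clone19, against 228 ± 11 CPM in Fh1_fl_fl.

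Most epithelial junction genes fell. Of 49 tested members, 34 fell (69.4%) and 4 rose (8.2%), with a median of -0.79, beside 36.1 and 36.8% of all genes. Against clone1, 13 were over 2-fold higher and 2 over 2-fold lower, beside 4.79% of all genes in each direction. Cdh1, E-cadherin, was at 289, 256, 265, 255 and 296 CPM in clone19, against 479, 482, 407, 349 and 415 CPM in Fh1_fl_fl, and Epcam at 221, 243, 237, 216 and 214 CPM, against 476, 461, 426, 403 and 431 CPM. Both exceeded clone1 by 0.69 (adjusted p = 7.03e-07) and 1.38 (adjusted p = 2.91e-14) on the log2 scale. Mal2, a membrane protein of apical transport, averaged 38.5 ± 5.87 CPM in clone19, 2.22 ± 0.279 in clone1 and 400 ± 21.5 in Fh1_fl_fl. The desmosomal linker Evpl had 2 counts in all of clone19 and averaged 3.21 ± 0.83 CPM in Fh1_fl_fl, and S100a14, a calcium-binding protein of epithelia that was set apart lower, 0.542 ± 0.351 and 27.8 ± 3.4 CPM. Of 7 tested keratins, 3 rose and 4 fell, and Krt20 rose to 5.73 ± 1.38 CPM in clone19, against 2.09 ± 0.371 CPM in Fh1_fl_fl. Krt8 and Krt18 fell to 243 ± 23 and 386 ± 24.7 CPM in clone19, against 565 ± 48.1 and 684 ± 22.1 CPM in Fh1_fl_fl. Krt18 was also 1.06 lower than in clone1 (log2, adjusted p = 9.21e-14).

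Of 21 tested kidney lineage factors, 9 rose (42.9%) and 10 fell (47.6%), beside 36.8 and 36.1% of all genes. Pax2, which specifies the nephric lineage, was at 44.8, 26.7, 43.9, 44.1 and 50.6 CPM in clone19, against 283, 275, 270, 239 and 294 CPM in Fh1_fl_fl, while its relative Pax8 averaged 233 ± 18.3 CPM in clone19 and 194 ± 8.17 CPM in Fh1_fl_fl, with an adjusted p of 0.0582 when libraries were scaled to their totals. Lhx1 had 2 counts in all of clone19 and 25.9 ± 1.34 CPM in Fh1_fl_fl, and Sim1 fell to 1.41 ± 0.272 CPM, against 14.7 ± 1.05 CPM. clone1 was also low in both, at 0.0398 ± 0.0891 CPM of Lhx1 and 0.988 ± 0.308 CPM of Sim1. In the distal tubule and collecting duct list, 5 of 12 rose and 6 fell: the potassium channel Kcnj16 fell to 7.57 ± 1.03 CPM in clone19, against 179 ± 11.2 CPM in Fh1_fl_fl, and Umod, uromodulin of the thick ascending limb, had no count in clone19 and 3.16 ± 0.468 CPM in Fh1_fl_fl, at least 42.3-fold lower. Umod was at 0 in clone1 and Rec too, and Kcnj16 was also low there, at means of 18 and 12.9 CPM. Hox genes fell in 25 of 32 tested cases (78.1%) and rose in 6 (18.8%), with a median of -0.85. clone1 shared this fall, with a median of -0.68 against Fh1_fl_fl, and the median of clone19 minus clone1 was 0.04. Hoxd11 averaged 0.137 ± 0.084 CPM in clone19 and 8.74 ± 0.561 CPM in Fh1_fl_fl, Hoxd13 had 1 count in all of clone19 and 3.64 ± 0.146 CPM in Fh1_fl_fl, Hoxd3 averaged 2.76 ± 0.806 and 14 ± 2.37 CPM, and Hoxb3 5.59 ± 1.4 and 19.8 ± 2.13 CPM. In the same order, their means in clone1 were 0.0373, 0.169, 1.25 and 5.28 CPM. Strand was not stated for the counting, so overlapping transcripts of these clusters cannot be told apart. Of 20 imprinted genes, 9 rose and 9 fell (45% each), not far from the shares of all genes. Grb10, which restrains insulin signalling, averaged 0.255 ± 0.183 CPM in clone19 and 22.1 ± 2.47 CPM in Fh1_fl_fl, Zim1 0.679 ± 0.438 and 28.3 ± 4.78 CPM, and Mest 2.76 ± 0.757 and 25.8 ± 2.06 CPM, with 11 ± 0.581 CPM of Mest in clone1. Grb10 and Zim1 were also low in clone1, at means of 0.369 and 1.21 CPM, and in Rec, at 0 and 0.0538 CPM. Mest was at 0 in Rec.

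Growth factor and guidance genes changed in both directions. Of 37 tested genes of EGF, FGF, PDGF and HGF signalling, 22 rose (59.5%) and 10 fell (27%), beside 36.8 and 36.1% of all genes. Their median was 0.58, and 2 were set apart higher and 3 lower, beside 1.36 and 0.687% of all genes. Fgf1 was at 1.99, 0.576, 0.35, 1.48 and 0.717 CPM in clone19, against 47.9, 38.7, 46.5, 49.5 and 53.8 CPM in Fh1_fl_fl, with 7.5 ± 1.7 CPM in clone1. Its receptor gene Fgfr3 rose to 5.85 ± 1.39 CPM in clone19, against 0.607 ± 0.188 CPM in Fh1_fl_fl, and the EGF receptor ligand Areg to 4.74 ± 0.326 CPM, against 0.602 ± 0.373 CPM. Pdgfra, a receptor of platelet-derived growth factor, was at 5.97, 2.07, 2.28, 3.54 and 3.99 CPM in clone19, against 0.441, 0.831, 0.405, 0.215 and 0.432 CPM in Fh1_fl_fl, and Artn, a ligand of the GDNF family, averaged 0.467 ± 0.269 and 8.55 ± 0.968 CPM. Igfbp4, which binds insulin-like growth factors, averaged 17.3 ± 2.34 CPM in clone19, 277 ± 38.7 in clone1 and 0.168 ± 0.157 in Fh1_fl_fl. Among 39 guidance genes, 19 rose and 13 fell: the semaphorin Sema6a was set apart higher at 44.9 ± 5.39 CPM in clone19, 2.96 ± 0.721 in clone1, 6.03 ± 1.14 in Rec and 4.59 ± 0.711 in Fh1_fl_fl, and Sema3b rose to 14.1 ± 2.53 CPM, against 1.41 ± 0.478 CPM in Fh1_fl_fl. In the Wnt list, 12 of 30 rose and 15 fell. Wnt7a averaged 288 ± 22.7 CPM in clone19 and 59.3 ± 4.58 CPM in Fh1_fl_fl, the receptor gene Fzd4 9.01 ± 2.16 and 1.52 ± 0.229 CPM, the inhibitor Apcdd1 5.39 ± 1.32 and 0.81 ± 0.457 CPM, and Fzd8 1.09 ± 0.321 and 5.78 ± 0.881 CPM. Their means in clone1 were 268, 16.8, 5.78 and 0.469 CPM, in that order. Wnt5a, named after its values were seen, fell in clone19 to 1.75 ± 0.551 CPM, against 6.29 ± 0.781 CPM in Fh1_fl_fl, and stood at 17.3 ± 1.99 CPM in clone1.

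YAP and TEAD targets, genes that respond to cell spreading and stiffness, rose in 15 of 24 tested cases (62.5%) and fell in 4 (16.7%). Their median was 0.56, and 36.8% of all genes rose and 36.1% fell. Vgll3, a cofactor of TEAD, was set apart at 41.8, 38.8, 42.4, 40.5 and 47.2 CPM in clone19, against 1.91, 2.29, 2.03, 1.65 and 2.16 CPM in Fh1_fl_fl, with 5.32 ± 1.16 CPM in clone1. Ccn1, a secreted matrix protein, averaged 612 ± 36.7 CPM in clone19 and 144 ± 20.9 CPM in Fh1_fl_fl, Crim1 222 ± 18.8 and 44 ± 4.5 CPM, and the nucleotidase Nt5e 44.6 ± 2.44 and 1.39 ± 0.461 CPM. The clone1 means of Ccn1, Crim1 and Nt5e were 485, 124 and 20.6 CPM. Nuclear receptors rose in 16 of 26 cases (61.5%) and fell in 3 (11.5%), beside the same shares of all genes. Rarb, a retinoic acid receptor, was set apart at 4.62 ± 1.18 CPM in clone19, 1.05 ± 0.57 in clone1, 0.0232 ± 0.0518 in Rec and 0.276 ± 0.144 in Fh1_fl_fl.

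Proliferation genes changed little in size. Of 42 replication and mitosis genes, 23 rose (54.8%) and 11 fell (26.2%), beside 36.8 and 36.1% of all genes. Their median was 0.24, with 1 over 2-fold higher and 1 over 2-fold lower, beside 8.2 and 7.28% of all genes. E2f1, which drives entry into S phase, was at 42.3, 43.4, 50.6, 49.1 and 53.6 CPM in clone19, against 16.8, 16.9, 20.3, 18.6 and 19.3 CPM in Fh1_fl_fl. Tyms and Rrm2, of nucleotide synthesis, are among its usual targets. They fell to 32.7 ± 3.41 and 73.5 ± 4.5 CPM, against 82.4 ± 4.83 and 148 ± 9.43 CPM in Fh1_fl_fl. Both were also low in clone1, at means of 28.4 and 47 CPM, but not in Rec, at 119 and 572 CPM. Among 32 cell cycle inhibitors and p53 targets, 18 rose and 8 fell. Gadd45a averaged 203 ± 13.9 CPM in clone19, 411 ± 28.4 in clone1 and 26.5 ± 2.23 in Fh1_fl_fl, Btg2 7.46 ± 1.35, 11.8 ± 1.07 and 64.2 ± 4.1 CPM in the same order, and Cdkn1c, which encodes p57, 2.11 ± 0.58, 0.0194 ± 0.0433 and 10.2 ± 0.606 CPM.

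**Figure D4:**
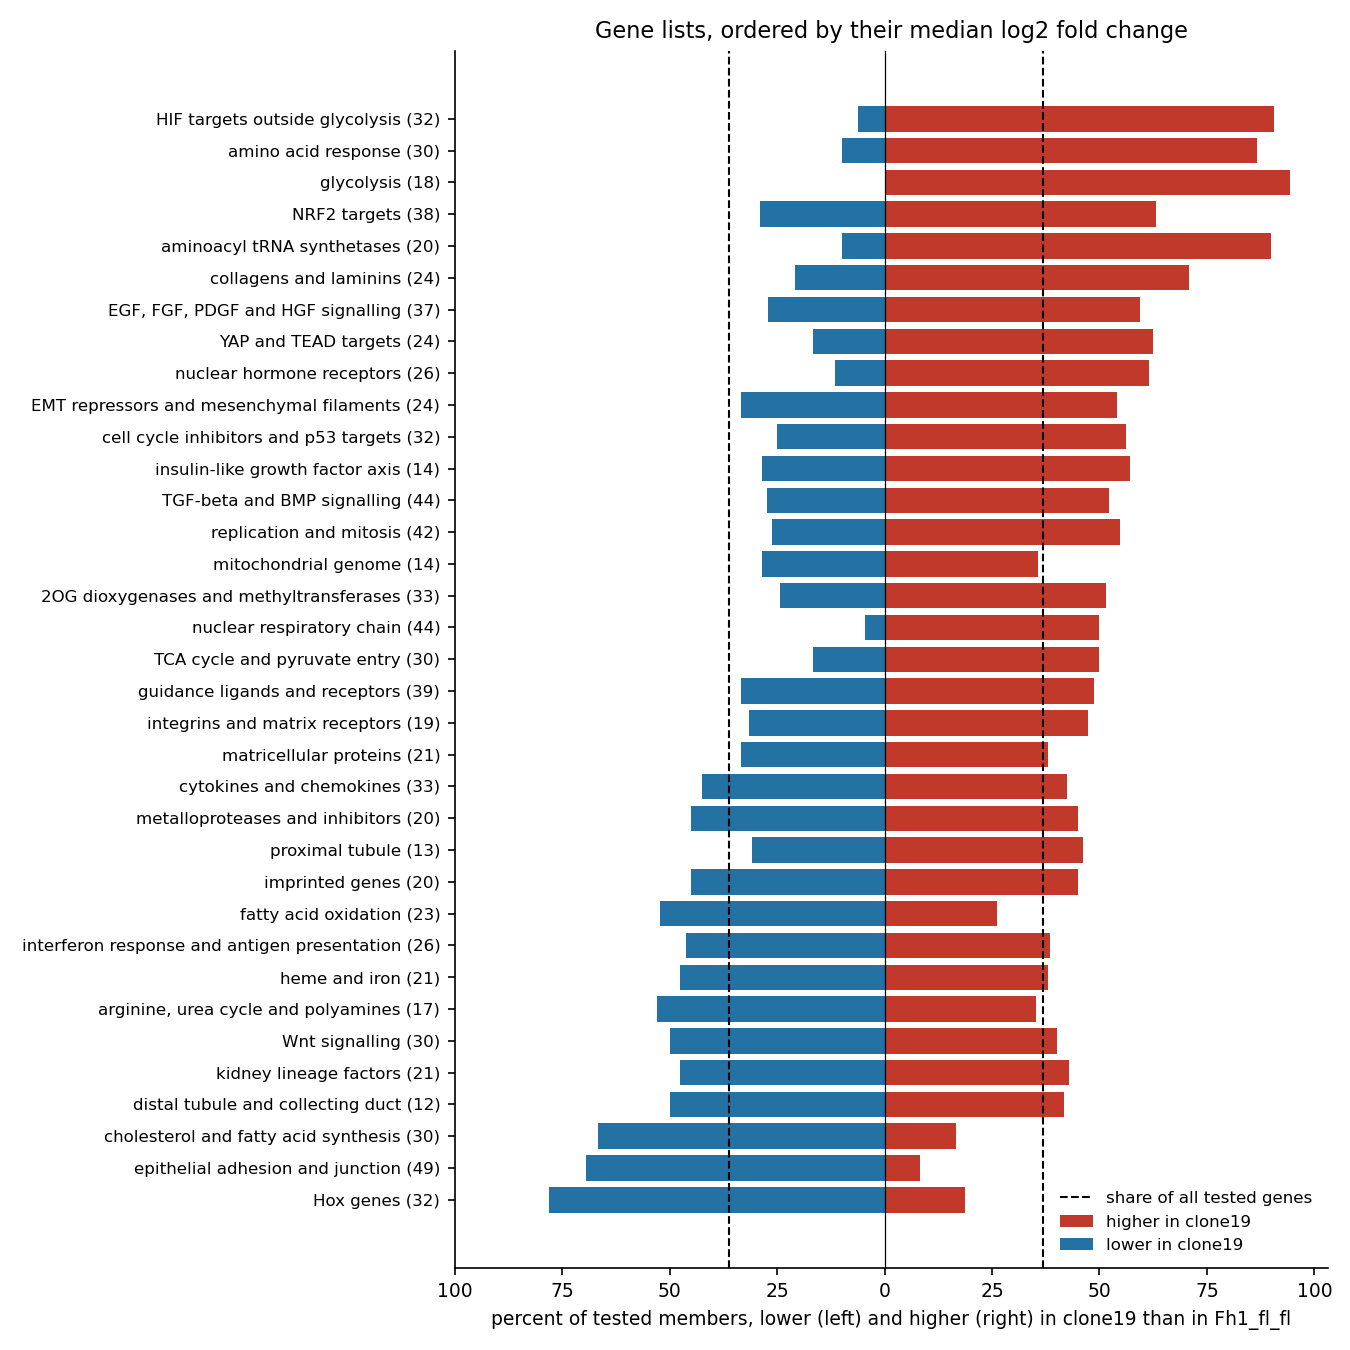
Percent of the tested members of each list that were lower (left, blue) and higher (right, red) in clone19 than in Fh1_fl_fl, for lists with at least 10 tested members, ordered by median log2 fold change. The dashed lines mark the shares of all tested genes, 36.1% lower and 36.8% higher; HIF targets, glycolysis and the amino acid response lie beyond the right line and the Hox, junction and lipid synthesis lists beyond the left line.

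Among the autosomes and X, the median log2 fold change, clone19 minus Fh1_fl_fl, was highest on chromosome 6 at 0.30 over 598 tested genes and lowest on chromosome 10 at -0.26 over 575, with 0.26 on X, 0.24 on 14, 0.23 on 9 and -0.20 on 8. It was 0.46 over the 18 tested genes of the mitochondrial genome, whose list above had no fixed direction. Over the 5 of Y it was -8.59, and the other lines shared this fall, at -9.88 in clone1 and -10.25 in Rec against Fh1_fl_fl. For Y, clone19 minus clone1 was 0.18. On chromosome 6, 52.8% of genes rose and 23.2% fell, and on chromosome 10, 21.7% rose and 53% fell. Against clone1 the order was another: chromosome 9 lay 0.53 higher in clone19, chromosomes 12 and X both 0.43 higher, and chromosome 6 lay 0.32 lower. Copy number was not measured, and its part in these medians was not tested. Chromosomes 5, 9 and X each held 14 of the 172 genes set apart higher, with 814, 721 and 416 of the 12671 tested genes, and chromosome 10 held 11 of the 87 set apart lower, with 575 tested genes.

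**Figure D5:**
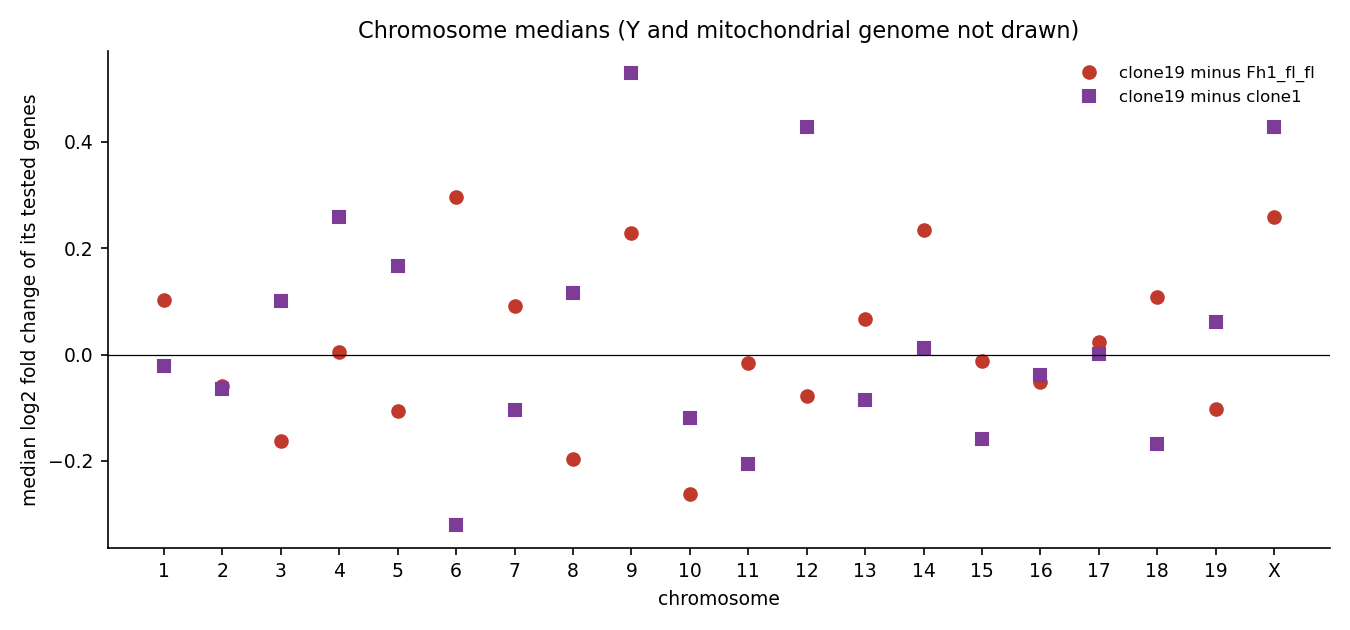
Median log2 fold change of the tested genes of each autosome and X (vertical; Y and the mitochondrial genome are not drawn), clone19 minus Fh1_fl_fl as red circles and clone19 minus clone1 as purple squares. Of those drawn, chromosome 6 is the highest against Fh1_fl_fl (0.30) and the lowest against clone1 (-0.32), and chromosome 9 is above 0 in both (0.23 and 0.53).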

How the data were processed

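RNA of 20 libraries was sequenced, 5 each of clone19, clone1, Rec and Fh1_fl_fl. The authors deposited raw counts of reads per gene for each library. Per the submitters' processing notes, GRCm38, TopHat2 2.0.4, HTSeq 0.5.3p9 and DESeq 1.10.1 were used; the sources used here give neither their settings nor the annotation release or strand mode. Of 39179 gene rows, 37693 were given a symbol from a GRCm38 annotation. Summary rows that name no gene were left out of totals; in clone19 replicate 3 reads without a unique place came to 40.3% of that file's total.

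Groups follow the sample labels. Genes with low counts were removed by edgeR's filter, which left 12671 and excluded 26508. One mean per line was fitted over all 20 libraries with edgeR 4.0.16 in R 4.3.3 (limma 3.58.1), scaled by the trimmed mean of M-values, with the quasi-likelihood test at an adjusted p of 0.05 and the test against a 2-fold change. p-values were Benjamini-Hochberg adjusted over all tested genes. Level means are in CPM, and a line with no count was given a limit of 3 counts over its libraries; ratios on 1 to 3 counts have exact 95% intervals. Intervals and limits cover counting error only.

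Genes named are Fh1, anchor genes of the lists, the 20 higher and 20 lower genes set apart with the largest change and at least 5 CPM, and up to 4 called members of each list with at least 3 CPM. The members, lists and rule were chosen with earlier results of these data known. Genes outside the rule are said to be so where they appear. Some genes that the rule names are not reported here. Replicate pairs of clone19 without replicate 3 differed by a chi-square of 2.66 to 19.4 per degree of freedom, and pairs with it by 61.8 to 92.2, so no library was a copy of another. The tests were tried on simulated data. Alternatives were DESeq2 1.42.0, other scalings and filters, the compared groups alone, a replicate block and leaving out each library.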

Additional observations from a re-analysis of the deposited data

Results flagged for a closer look

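In single libraries, 16 values lay far from the others of their line, over 158 genes in each of 2 lines. A gene was skipped in a line where no library reached 1 CPM, so fewer cases were scanned. Chance gives about 1 in 20 of the scanned cases. In clone19, Hopx was lowest in replicate 5 at 11.7 CPM, Vat1l highest in replicate 1 at 21.7 CPM, and Htra1 highest in replicate 1 at 469 CPM. In replicate 2 of clone19, B4galnt2 was highest at 19.1 CPM and S100a14 highest at 1.15 CPM, and Itga7 was lowest at 7.03 CPM, Pax2 lowest at 26.7 CPM and Chac1 lowest at 104 CPM. Among the scanned genes, replicate 3 of clone19 stood out once, by Gm42418 at 91500 CPM. Most other ribosomal and small RNA loci were not scanned. Lars2, also not scanned, took 2.66% of its gene counts, against 0.184 to 0.27% in the other clone19 libraries. In Fh1_fl_fl, replicate 1 was highest for Plat at 646 CPM, Csf1 at 84.7 CPM and Kcnj16 at 198 CPM, and replicate 2 for Hmox1 at 47.1 CPM, Chac1 at 67.5 CPM and Areg at 1.25 CPM. Nt5e was lowest in Fh1_fl_fl replicate 5 at 0.576 CPM.

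For 5 of the genes followed here, among the wider counts of 13 and 32 given above, the 2 clones moved in opposite directions from Fh1_fl_fl, and the difference between the clones was tested directly. As log2 differences, clone19 minus clone1, these were -7.7 for Arg1, 3.77 for Col12a1, 4.85 for C3 and -3.35 for Wnt5a. Ereg had -8.69, a fitted value that depends on the prior count since clone19 had no count.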

How the results depend on the processing

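With genes required to reach 1 CPM in 10 libraries, 77 genes were set apart higher in clone19, in place of 172; by construction that filter removes genes counted only in the 5 clone19 libraries. Fitted with only the 2 compared groups of each contrast, 56 were set apart lower, in place of 87; the cause was not tested. Leaving out 1 library at a time gave 9017 to 9224 changed genes against Fh1_fl_fl, 1012 to 1047 over 2-fold higher and 890 to 936 lower, 1191 to 1231 over 2-fold from clone1, 1904 to 1992 from Rec, and 168 to 188 set apart higher and 78 to 89 lower. DESeq2 called 9221 genes changed. Of the single-gene values with 1 library left out, 1569 of 1570 kept their direction and side of the threshold; the exception was Gm42418, at -0.14 without clone19 replicate 3 (adjusted p = 0.485) and at up to 3.08 without another library. Under the other alternatives 1220 of 1223 did, except Fh1 and Pax8 with library totals and Gm42418 with the replicate block (1.37). Library totals shift every gene by about -0.124, so list medians near 0 change sign by construction, as for matricellular proteins (-0.05), integrins (-0.01) and cytokines (-0.11). With the replicate number as a block, 9186 genes changed. Deviations of same-numbered clone19 and Fh1_fl_fl libraries correlated between -0.24 and 0.155, so no clear pairing by number was seen. What the numbers mark is not stated, and a weak shared effect would not show in so few libraries. A gene with 3 counts in a clone19 library stood at 0.297 to 0.501 CPM, and lower levels rest on fewer counts in a library.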
